A study of Mus musculus with 12 samples.

Results

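The genes described here build the contractile apparatus of striated muscle and its calcium store, and were measured in mouse aorta. They are 38 genes chosen by symbol (sarcomere proteins, calcium store proteins, natriuretic peptides, a heart transcription factor and muscle energy genes), and all 38 had a probe set naming that gene alone, out of 22180 genes so measured. They were sorted by known expression into 11 heart genes, 8 genes shared by heart and slow skeletal muscle, 8 genes shared by heart and skeletal muscle in general, and 11 skeletal muscle genes. The aortic vessel of each of 12 female mice of the outbred CD-1 stock gave RNA for its own array; the age of the mice is not given in the sources used here. CM-695 inhibits the deacetylase HDAC6 and the phosphodiesterase PDE9. It was injected intraperitoneally at 80 mg/kg in 6 mice, first 2 h and then 1 h before sacrifice, and the other 6 mice received saline vehicle, given once per the series design. Every mouse was perfused with buffered saline, and the vessel was frozen before RNA extraction.

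In striated muscle, myosin thick filaments pull on actin thin filaments when calcium binds troponin, Z-discs anchor the thin filaments, and titin runs from the Z-disc to the middle of the sarcomere as a spring. Calcium leaves the sarcoplasmic reticulum through ryanodine receptors, is buffered there by calsequestrin, and is pumped back by SERCA pumps that phospholamban and sarcolipin restrain. Smooth muscle of the vessel wall has no sarcomeres and mostly uses other actin and myosin genes, while the root of the aorta leaves the heart, whose muscle uses the cardiac set.

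Values are log2 expression after RMA, so 1 unit is a 2-fold difference. They carry no detection calls, and probe sets differ in brightness, so each gene was placed only against its own array, whose median lay between 4.69 and 4.74 and whose upper quartile lay between 6.07 and 6.13. On all 6 vehicle arrays, 8 of 11 heart genes, 4 of 8 genes of heart and slow muscle and 6 of 8 genes of heart and skeletal muscle exceeded the upper quartile, against 0 of 11 skeletal genes. Of all 22180 genes, 6069 did so. These ranks still carry each probe set's own brightness, so they describe the arrays and do not compare amounts between genes or muscle types.

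Heart muscle transcripts measured lower after CM-695 in most of the set, with wide spread between mice, while the skeletal genes lay close to 0 difference. The median difference, CM-695 minus vehicle, was -1.60 log2 over the heart genes, -1.03 over genes of heart and slow muscle, -1.23 over genes of heart and skeletal muscle, and 0.03 over the skeletal genes, beside 0.02 over all genes. The difference was below 0 in 30 of the 38 genes and in 44.7% of all genes. None of the 38 genes passed the threshold (limma with Benjamini-Hochberg adjustment over all probe sets, 0.05), which 0.167% of genes and 0.155% of probe sets passed; the smallest adjusted p was 0.105, for Trdn. At an unadjusted limma p under 0.05, 20 of 38 genes were lower, where 4.14% of all genes were, and 0 were higher, where 4.96% were. Those 20 were 8 heart genes, 5 of heart and slow muscle, 7 of heart and skeletal muscle and 0 skeletal genes. The split also followed brightness. The 18 members above the upper quartile on all vehicle arrays had a median difference of -1.61, with 17 lower at that level. The other 20 members, which include all 11 skeletal genes, had a median of -0.02, with 3 lower (Mybpc3, Casq2 and Trdn). This cut was made on the vehicle values, which also enter the difference. It can tilt the genes above it toward lower differences, so the split is a description and adds no support. Muscle type was not separated from brightness, and whether dim probe sets had less room to fall was not tested. The members were chosen with earlier results of these mice known, so these counts describe the set. In bulk tissue, fewer cells of a type and less RNA per cell cannot be told apart.

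**Figure D1:**
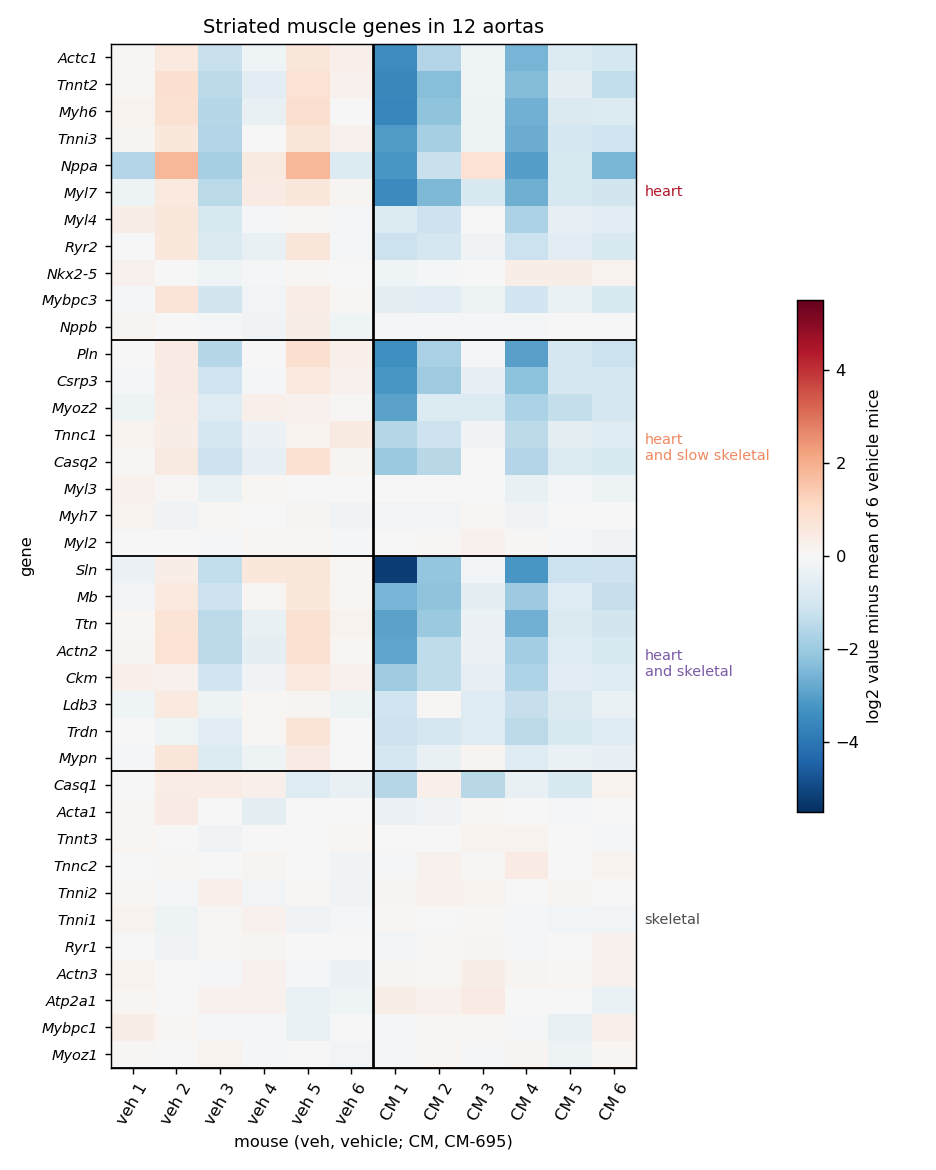
Each row is a gene and each column a mouse; colour gives the log2 value minus the mean of the 6 vehicle mice, and lines separate the gene classes and the groups. Blue runs through most heart and shared genes in the CM-695 columns, deepest in mice 1 and 4, and also marks vehicle mouse 3; the skeletal rows stay near 0 except Casq1.

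**Figure D2:**
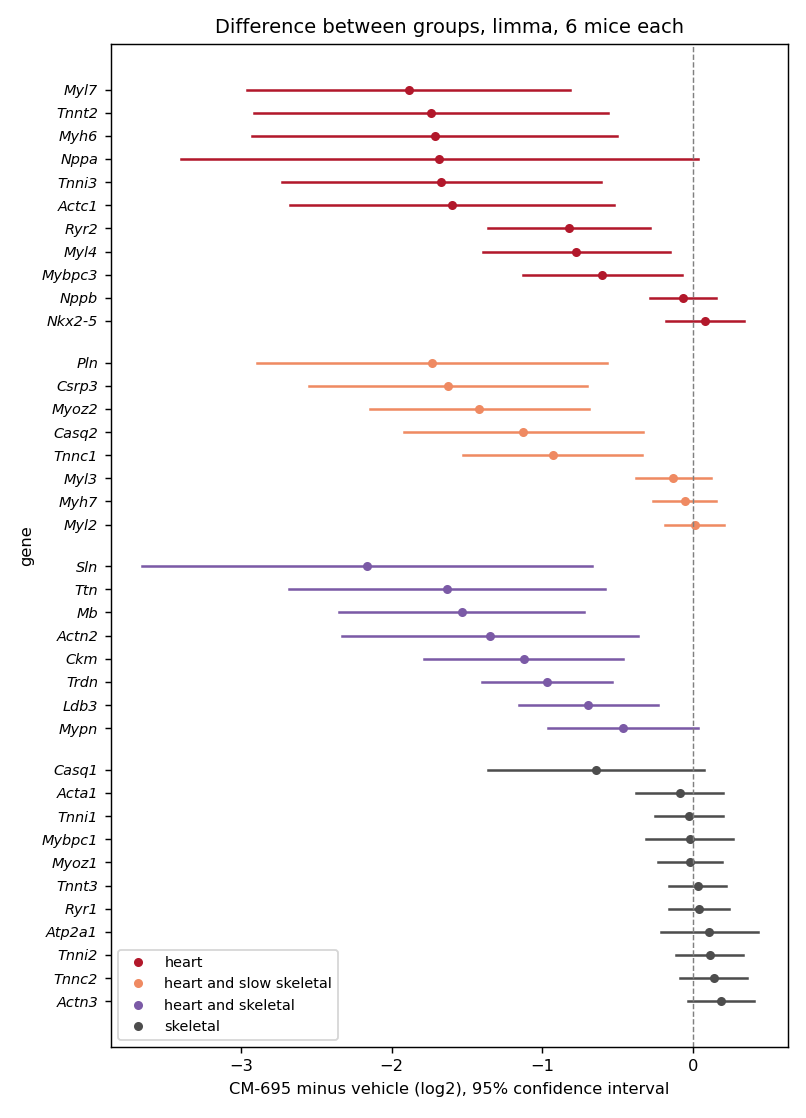
Points give the difference between group means, CM-695 minus vehicle on the log2 scale, with limma's 95% confidence interval (6 mice per group), coloured by class. Heart and shared genes reach -2.16 (Sln), while 10 of 11 skeletal genes lie between -0.09 and 0.19.

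Thin filament genes divided along the classes, and those that measured lower were also the brighter ones. Actc1, cardiac alpha-actin, lay between 9.61 and 11.48 (median 11.02) in vehicle mice and between 7.38 and 10.60 (median 9.56) in CM-695 mice, a difference of -1.60 (adjusted p = 0.325, SE 0.50) or 3.03-fold. The groups overlapped: 3 CM-695 mice were below every vehicle mouse, and the other 3 lay inside the vehicle range, which vehicle mouse 3 extended downward. Tnnt2, cardiac troponin T, which ties troponin to tropomyosin, ranged from 9.04 to 11.37 in vehicle (median 10.67) and from 6.97 to 10.26 in CM-695 (median 8.65), a difference of -1.74 (adjusted p = 0.331, SE 0.55). Tnni3, the inhibitory troponin I of the heart, ranged from 7.30 to 9.57 in vehicle (median 9.12) and from 5.78 to 8.63 in CM-695 (median 7.45), a difference of -1.67 (adjusted p = 0.287, SE 0.49). For both, 3 of 6 CM-695 mice lay below all vehicle mice. Tnnc1, the calcium-binding troponin C of heart and slow muscle, spread less, from 6.53 to 7.94 in vehicle (median 7.63) and from 5.89 to 7.26 in CM-695 (median 6.51), and differed by -0.93 (adjusted p = 0.293, SE 0.28). The skeletal counterparts had dimmer probe sets and gave no such separation. Acta1, skeletal alpha-actin, ranged from 5.51 to 6.46 in vehicle (median 6.03) and from 5.71 to 6.06 in CM-695 (median 5.96), a difference of -0.09 (adjusted p = 0.887, SE 0.13). Its mice overlapped fully, with 0 CM-695 mice outside the vehicle range. The fast and slow skeletal troponin genes Tnni1, Tnni2, Tnnt3 and Tnnc2 differed by -0.02 to 0.14 (adjusted p 0.730 to 0.965). Actc1 and Acta1 code for nearly identical actins and their probe sets may pick up each other's transcripts, which makes the separate values uncertain.

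The stretches before the transcription starts of 3 of these genes are shown because 2 of the genes measured lower after CM-695 and the third did not, although each holds a CArG box, the site bound by serum response factor. They are the 250 bases upstream, from RefSeq on GRCm38.p6, 5′ to 3′ on the gene's strand, with the CArG box in capitals: chr2:114052876-114053125 (minus strand) for Actc1, chr11:5898783-5899032 (minus strand) for Myl7, the atrial light chain described next, and chr8:123894776-123895025 (minus strand) for Acta1.
Actc1: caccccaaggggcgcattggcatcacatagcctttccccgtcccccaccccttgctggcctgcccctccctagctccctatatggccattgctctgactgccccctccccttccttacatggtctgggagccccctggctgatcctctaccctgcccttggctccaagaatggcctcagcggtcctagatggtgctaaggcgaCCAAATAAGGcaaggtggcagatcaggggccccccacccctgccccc
Myl7: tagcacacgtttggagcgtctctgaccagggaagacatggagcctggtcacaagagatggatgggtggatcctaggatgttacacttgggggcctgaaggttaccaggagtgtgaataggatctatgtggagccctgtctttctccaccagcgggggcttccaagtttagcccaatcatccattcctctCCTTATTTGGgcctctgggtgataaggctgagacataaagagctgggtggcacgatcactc
Acta1: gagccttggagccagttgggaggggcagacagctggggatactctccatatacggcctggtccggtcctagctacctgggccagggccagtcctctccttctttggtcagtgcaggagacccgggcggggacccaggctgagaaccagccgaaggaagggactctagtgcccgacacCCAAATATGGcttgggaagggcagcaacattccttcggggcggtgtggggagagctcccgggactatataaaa
The box begins 47 bases before the start in Actc1, 61 in Myl7 and 73 in Acta1. RefSeq windows matched 32 of the 38 genes; Sln, Trdn, Tnni2, Tnnt3, Myoz1 and Actn3 had none. A CArG box on either strand stood in the 250 bases of 5 of the 32 (Actc1, Myl7, Myl3, Acta1 and Ldb3), as in 1.62% of 27025 genes with a window. Other motifs, also sought on both strands, were the MEF2 box in 4 of 32 (Mybpc3, Myoz2, Casq2 and Ttn; 3.42% of all), the GATA-type AGATAA in 4 of 32 (Tnnt2, Nppb, Myl2 and Pln; 11.4% of all) and the clock E-box CACGTG in 1 of 32 (Actn2; 6.86% of all). The 4 motifs do not contain each other. A gene counts once if any of its windows holds the motif, and a match describes letters only: genes with a CArG box were among those that measured lower (Actc1, Myl7, Ldb3) and among those near 0 difference (Acta1, Myl3).

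Thick filament genes ran from a large difference in Myh6 and Myl7 to values near 0. Myh6, alpha-myosin heavy chain, the main heavy chain of the adult mouse heart, lay between 7.57 and 10.01 (median 9.25) in vehicle mice and between 5.56 and 8.85 (median 7.63) in CM-695 mice, a difference of -1.71 (adjusted p = 0.351, SE 0.56). Myl7, the regulatory light chain of the atria, ranged from 7.19 to 9.30 in vehicle (median 8.97) and from 5.19 to 7.85 in CM-695 (median 6.94), a difference of -1.89 (adjusted p = 0.212, SE 0.50) or 3.70-fold. In both, CM-695 mice 1, 2 and 4 lay below every vehicle mouse and mice 3, 5 and 6 lay within the vehicle range. Myl4, the essential light chain of the atria, ranged from 7.53 to 9.04 in vehicle (median 8.41) and from 6.65 to 8.43 in CM-695 (median 7.74), a smaller difference of -0.77 (adjusted p = 0.440, SE 0.29). The ventricular light chains gave differences near 0; Myl2 was above the array median on 1 of 12 arrays and Myl3 on all 12. Myl2, the ventricular regulatory light chain, ranged from 4.42 to 4.65 in vehicle (median 4.51) and from 4.34 to 4.79 in CM-695 (median 4.56) and differed by 0.01 (adjusted p = 0.980, SE 0.09), 95% confidence interval -0.18 to 0.21. Myl3, the ventricular essential light chain, differed by -0.13 (adjusted p = 0.775, SE 0.11), and Myh7, the beta-myosin heavy chain, by -0.05 (adjusted p = 0.905, SE 0.10). Myh6 and Myh7 are close paralogues with the same uncertainty. Cardiac myosin-binding protein C, Mybpc3, which sets the pace of cross-bridges, ranged from 4.50 to 6.26 in vehicle (median 5.55) and from 4.48 to 5.25 in CM-695 (median 5.0), a difference of -0.60 (adjusted p = 0.483, SE 0.24). Only 1 CM-695 mouse was below the vehicle range for Mybpc3. Its slow skeletal relative Mybpc1 was under its array's median on all 12 arrays and differed by -0.02 (SE 0.13).

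Of the 4 genes known best from atria (Myl4, Myl7, Nppa and Sln), all exceeded the upper quartile on every vehicle array, and of the ventricular pair Myl2 and Myl3, neither did. The median difference was -1.79 log2 for the 4 atrial genes and -0.06 for the ventricular pair. These are descriptions of small groups of probe sets with no test between them. The ventricular pair was also the dimmer, and whether this left it less room to fall was not tested.

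Nppa, the atrial natriuretic peptide, was the most scattered member in vehicle mice. It lay between 7.05 and 10.72 (median 8.77) in vehicle mice and between 5.68 and 9.67 (median 7.01) in CM-695 mice, an SD of 1.64 in vehicle mice and 1.53 in CM-695 mice, and differed by -1.68 (adjusted p = 0.554, SE 0.80). CM-695 mouse 3, at 9.67, exceeded 4 of the 6 vehicle mice. The related peptide gene Nppb, induced in stressed ventricle, was dim (4.30 to 4.91 over all 12 mice) and differed by -0.06 (SE 0.10). Nkx2-5, the heart's homeobox factor, was measured above the array median on all 12 arrays and differed by 0.08 (adjusted p = 0.877, SE 0.12). Alone of the 11 heart genes, it lay above 0.

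Genes of the Z-disc and titin measured lower in both shared classes. Ttn, titin, ranged from 6.40 to 8.71 in vehicle (median 8.03) and from 4.93 to 7.55 in CM-695 (median 6.34), a difference of -1.63 (adjusted p = 0.296, SE 0.49). Actn2, the alpha-actinin that cross-links thin filaments in heart and all skeletal fibres, ranged from 6.36 to 8.63 in vehicle (median 7.92) and from 4.86 to 7.47 in CM-695 (median 6.65), a difference of -1.35 (adjusted p = 0.368, SE 0.46). Csrp3, muscle LIM protein, ranged from 7.47 to 9.13 in vehicle (median 8.67) and from 5.37 to 8.14 in CM-695 (median 7.11), a difference of -1.63 (adjusted p = 0.213, SE 0.43). In Ttn and Csrp3 3 of 6 CM-695 mice were below all vehicle mice, and in Actn2 2 of 6. Myoz2, the calcineurin-binding Z-disc protein of heart and slow muscle, lay between 7.23 and 8.34 (median 8.07) in vehicle mice and between 4.97 and 7.17 (median 6.78) in CM-695 mice, a difference of -1.42 (adjusted p = 0.153, SE 0.34) or 2.67-fold. Its groups did not overlap: the highest CM-695 mouse, at 7.17, was just under the lowest vehicle mouse, at 7.23. Every CM-695 mouse lay below every vehicle mouse in 2 of the 38 genes, Myoz2 and Trdn, and in 0.636% of all genes. Ldb3, a PDZ and LIM domain protein of the Z-disc, ranged from 6.51 to 7.33 in vehicle (median 6.74) and from 5.54 to 6.85 in CM-695 (median 6.04), with 5 of 6 CM-695 mice below the vehicle range and a difference of -0.69 (adjusted p = 0.323, SE 0.21). Mypn, myopalladin, differed by -0.46 (adjusted p = 0.581, SE 0.23). The fast-fibre Z-disc genes Myoz1 and Actn3 differed by -0.02 (SE 0.10) and 0.19 (SE 0.10).

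**Figure D3:**
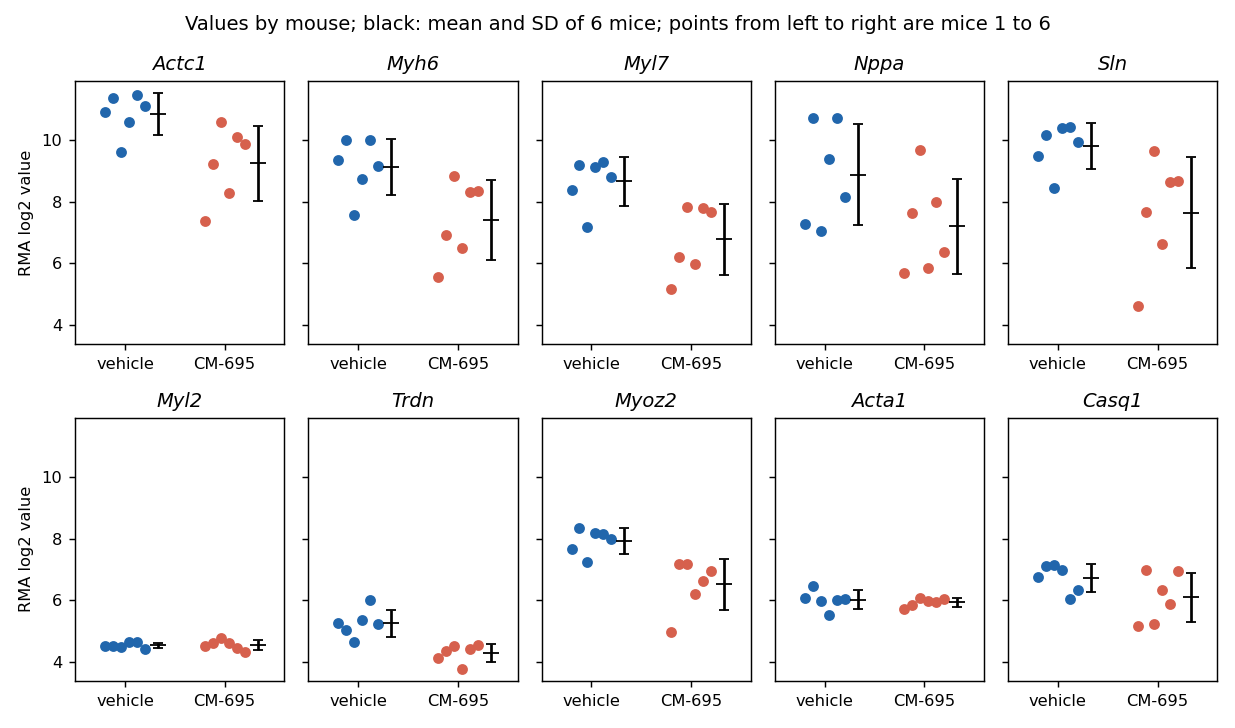
RMA log2 values of 10 genes in each mouse (points from left to right are mice 1 to 6), with mean and SD of the 6 mice of each group in black. The atrial genes Myl7, Nppa and Sln spread over several units and overlap between groups, Trdn and Myoz2 do not overlap, Myl2 stays within 4.34 to 4.79, and Acta1 lies within 5.51 to 6.46 with no CM-695 mouse outside the vehicle range.

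Calcium store genes of the heart measured lower, with Sln at the largest difference of the set and Trdn at the smallest p with all mice. Without CM-695 mouse 1 Sln was at -1.56, beside -1.57 for Myl7. The smallest adjusted p (limma) was 0.129, for Myoz2, without CM-695 mouse 1, 0.116, for Ldb3, without mouse 2, and 0.136, for Mb, without mouse 3. Sln, sarcolipin, which restrains SERCA in atria and skeletal muscle, lay between 8.45 and 10.41 (median 10.05) in vehicle mice and between 4.61 and 9.66 (median 8.16) in CM-695 mice, a difference of -2.16 (adjusted p = 0.344, SE 0.69) or 4.48-fold. CM-695 mouse 1 was far under the rest, at 4.61, and 3 CM-695 mice were below all vehicle mice. Pln, phospholamban, the SERCA inhibitor of heart, slow and also smooth muscle, ranged from 7.81 to 10.26 in vehicle (median 9.52) and from 6.02 to 9.26 in CM-695 (median 7.91), a difference of -1.73 (adjusted p = 0.325, SE 0.54). Ryr2, the cardiac calcium release channel, ranged from 6.78 to 8.25 in vehicle (median 7.54) and from 6.40 to 7.37 in CM-695 (median 6.70), with 4 of 6 CM-695 mice below the vehicle range and a difference of -0.82 (adjusted p = 0.304, SE 0.25). Casq2, cardiac calsequestrin, ranged from 5.39 to 7.39 in vehicle (median 6.65) and from 4.49 to 6.52 in CM-695 (median 5.35), a difference of -1.13 (adjusted p = 0.348, SE 0.37). Trdn, triadin, which anchors calsequestrin to the release channel, lay between 4.63 and 5.99 (median 5.25) in vehicle mice and between 3.77 and 4.56 (median 4.38) in CM-695 mice, a difference of -0.97 (adjusted p = 0.105, SE 0.20). Its 6 CM-695 mice were all below the 6 vehicle mice (at most 4.56 against at least 4.63), and it was dim, above the array median on 5 of 12 arrays. With dim probe sets left out of the test, Trdn passed the threshold (adjusted p = 0.0494). That filter kept probe sets with a mean over all 12 arrays above 4.72. Trdn cleared it only through its vehicle mean of 5.25, as every CM-695 mouse lay under the cut. The call therefore adds no support. Of the 3 skeletal store genes, 2 lay near 0: Ryr1, the skeletal release channel, differed by 0.04 (adjusted p = 0.924, SE 0.09), and Atp2a1, the SERCA pump of fast fibres, ranged from 4.08 to 4.66 in vehicle (median 4.51) and from 4.09 to 4.90 in CM-695 (median 4.56), a difference of 0.11 (adjusted p = 0.863, SE 0.15). Casq1, skeletal calsequestrin, was the skeletal member farthest from 0 and ranged from 6.03 to 7.13 in vehicle (median 6.88) and from 5.17 to 6.99 in CM-695 (median 6.11). Its difference was -0.64 (adjusted p = 0.592, SE 0.33), with 3 of 6 CM-695 mice below every vehicle mouse and mice 1 and 3 lowest, an order unlike that of the heart genes, in which mouse 3 stood highest.

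The energy genes of heart and skeletal muscle measured lower as well. Mb, the oxygen-binding myoglobin, ranged from 7.26 to 8.97 in vehicle (median 8.52) and from 5.86 to 7.92 in CM-695 (median 6.78), a difference of -1.54 (adjusted p = 0.171, SE 0.38) or 2.90-fold, with 4 of 6 CM-695 mice below all vehicle mice. Ckm, muscle creatine kinase, ranged from 6.36 to 7.95 in vehicle (median 7.64) and from 5.48 to 6.95 in CM-695 (median 6.39), a difference of -1.12 (adjusted p = 0.237, SE 0.31). A dimmer Ckm probe set, with means of 4.16 in vehicle and 4.02 in CM-695 mice, differed by -0.14 (SE 0.10, adjusted p = 0.712), and the mean of both probe sets by -0.63.

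The same mice were low or high in most members outside the skeletal class. Among those 27 genes, vehicle mouse 3 was the lowest vehicle mouse in 23 and vehicle mouse 5 the highest in 16. In the CM-695 group, mouse 1 was lowest in 20 of the 27 and mouse 3 highest in 21. Among the 11 skeletal genes the order differed, with vehicle mouse 3 lowest in 1 and highest in 3, and CM-695 mouse 1 lowest in 4 and mouse 3 highest in 3. The mean of the 11 heart genes was 8.10 ± 0.64 in vehicle and 6.97 ± 0.75 in CM-695 mice (SD, n = 6 each), from 7.0 to 8.76 in vehicle and from 6.00 to 7.96 in CM-695 mice. CM-695 mice 1, 2 and 4, at 6.00, 6.78 and 6.31, were below the lowest vehicle mouse, and mice 3, 5 and 6, at 7.96, 7.56 and 7.22, were not. The mean of the 11 skeletal genes stayed between 4.96 and 5.22 in both groups.

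Within groups several of the heart genes varied together from mouse to mouse. After the group means were removed, Actc1 and Tnni3 correlated over 12 mice with Pearson's r = 0.98 (permutation p = 1e-05, the smallest that 100000 permutations can give, adjusted p = 7e-05) and Spearman's rho = 0.99 (permutation p = 1e-05, adjusted p = 7e-05). Without CM-695 mouse 1 and vehicle mouse 3, the mice farthest from the Actc1 median, r was 0.99. Actc1 and Myl7 gave r = 0.93 (permutation p = 0.00031, adjusted p = 0.000723) and rho = 0.95 (permutation p = 0.00017, adjusted p = 0.000467), with r = 0.85 without the same mice. Actc1 and Acta1 gave r = 0.45 (permutation p = 0.0795, adjusted p = 0.139) and rho = 0.58 (permutation p = 0.0608, adjusted p = 0.0882), with r = 0.37 without the pair. The skeletal genes Acta1 and Atp2a1 gave r = -0.27 (permutation p = 0.399, adjusted p = 0.466) and rho = -0.29 (permutation p = 0.379, adjusted p = 0.379), with r = -0.30 without vehicle mice 4 and 2. Actc1 and Myh11, the smooth muscle myosin heavy chain, gave r = -0.27 (permutation p = 0.48, adjusted p = 0.480) and rho = -0.57 (permutation p = 0.063, adjusted p = 0.0882), and r = -0.56 without CM-695 mouse 1 and vehicle mouse 3. The tests permuted mice within groups, two-sided, and p-values were adjusted over 7 relations, of which 2 stand under the other observations.

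**Figure D4:**
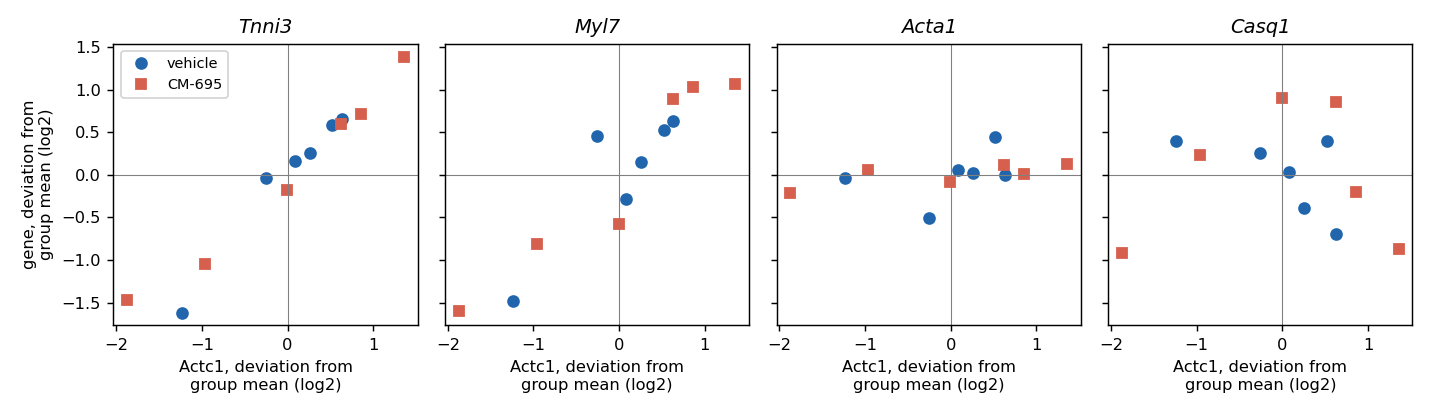
Each point is a mouse; both axes give the deviation of a gene's log2 value from its group mean, Actc1 on the horizontal axis. Tnni3 (r = 0.98) and Myl7 (r = 0.93) rise with Actc1 in both groups, while r is -0.03 for Casq1 and 0.45 for Acta1, for which it is 0.40 within vehicle and 0.76 within CM-695 mice.

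By the same measure, 13 of the other 37 members were among the 20 genes most like Actc1 out of 22179: Csrp3, Pln, Tnni3, Myh6, Ttn, Actn2, Tnnt2, Sln, Ckm, Myl7, Casq2, Tnnc1 and Mb, with r from 0.99 to 0.91. The median r was 0.77 over the other heart genes, 0.88 over genes of heart and slow muscle, 0.93 over genes of heart and skeletal muscle, -0.03 over the skeletal genes and -0.0017 over all genes. Over the other 10 heart genes r ran from 0.27 (Nppb) to 0.98 (Tnni3), with 5 of them above 0.8. Nkx2-5 (0.44) and Mybpc3 (0.58) were also among the less like. Ldb3 (0.48) was the shared gene least like Actc1 outside Myl2, Myl3 and Myh7, whose differences lay near 0. Trdn, whose groups did not overlap, ranked 246 (r = 0.67). Outside the 38 genes, those most like Actc1 were Tecrl (0.97), Ankrd1 (0.96), Cox6a2 (0.94), Klhl31 (0.93), Smpx (0.90), Lrrc2 (0.90), Tmem88 (0.90), Ckmt2 (0.90), Mybphl (0.89) and Txlnb (0.89). These points share arrays and tissue pieces, and the ranking is a description. Tecrl (-1.69, SE 0.40) and Klhl31 (-0.41, SE 0.17) were lower after CM-695 by size without passing the threshold, and Tmem88 was at 0.24 (SE 0.12).

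A wider list of 76 other striated muscle genes, 72 of them measured, had a median difference of -0.24 log2, with 51 below 0 and 21 above. The list pooled heart and skeletal genes and was not split by class. It also held genes used outside striated muscle, such as Atp2a2, so its counts do not describe striated muscle alone. The Z-disc gene Tcap, which caps titin, fell and was the only one past the threshold; it measured 6.45 ± 0.37 in the CM-695 group against 8.52 ± 0.28 in the vehicle group (SD, n = 6 each), a difference of -2.07 (adjusted p = 0.000174, SE 0.18). Its r with Actc1 within groups was 0.86, rank 30. At an unadjusted limma p under 0.05, 24 of 72 were lower and 3 higher (4.14% and 4.96% of all genes). Lower by size without passing were Nebl, a nebulin relative of the cardiac Z-disc (-0.82 (adjusted p = 0.149, SE 0.19)), Ckmt2, the mitochondrial creatine kinase of striated muscle (-1.75 (adjusted p = 0.151, SE 0.41)), Hrc, a calcium-binding protein of the store (-0.81 (adjusted p = 0.165, SE 0.20)), and the heart transcription factor Tbx20 (-0.64 (adjusted p = 0.165, SE 0.16)). Atp2a2, the SERCA pump of heart, slow and smooth muscle, measured 10.21 ± 0.29 in the CM-695 group against 10.89 ± 0.35 in the vehicle group (SD, n = 6 each), a difference of -0.68 (adjusted p = 0.195, SE 0.17). Tcap and Tbx20 were the 2 of the 72 genes with every CM-695 mouse below every vehicle mouse, as were 0.636% of all genes.

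Markers of other cell types in the same tissue were set beside the heart genes. The 11 measured vascular smooth muscle markers had a mean of 9.10 to 10.18 in vehicle and 8.58 to 10.79 in CM-695 mice, a median difference of -0.27 log2, and 0 of 11 with an unadjusted limma p under 0.05. As for the heart mean, 3 of 6 CM-695 mice had a smooth muscle mean below all vehicle mice, though these were mice 1, 3 and 5. Unlike the heart mean, with 0 CM-695 mice above all vehicle mice, the smooth muscle mean had 1, mouse 2 at 10.79. CM-695 mouse 3, highest for the heart mean, had the lowest smooth muscle mean, and CM-695 mouse 1, lowest for the heart mean, had the second lowest of its group. The 11 fibroblast markers ranged from 8.69 to 9.48 and from 8.51 to 8.97 (median difference -0.38, 4 of 11 lower at an unadjusted limma p under 0.05, 3 of 6 CM-695 mice below all vehicle mice). Of all genes, 4.14% were lower at that level and 4.96% higher. The 10 endothelial markers ranged from 7.39 to 7.73 and from 7.45 to 7.80 (median difference 0.04, 1 lower and 1 higher at that level). Brown adipocyte markers, 6 measured, ranged from 9.67 to 10.29 and from 8.97 to 10.20 (median difference -0.03), general adipocyte markers, 9 measured, from 9.66 to 10.01 and from 9.23 to 10.21 (0.08), and macrophage markers, 8 measured, from 6.33 to 7.17 and from 6.39 to 7.10 (-0.04). The 7 markers of epicardium and mesothelium ranged from 6.11 to 6.74 and from 5.97 to 6.83 (-0.02), and the 7 cartilage markers from 5.36 to 5.71 and from 5.36 to 5.84 (0.02). Single markers departed from these medians. By unadjusted limma p under 0.05, 1 brown adipocyte, 2 general adipocyte and 1 macrophage marker were lower, and 1 general adipocyte marker was higher. For the general adipocyte mean, 4 of 6 CM-695 mice were above all vehicle mice and 1 was below. All smooth muscle, fibroblast and both sets of adipocyte markers exceeded the upper quartile on every vehicle array. In these 8 marker lists 0 genes passed the adjusted threshold, which 0.167% of all genes passed. The part of smooth muscle and fibroblast content in the heart gene values was not tested. How much heart tissue was dissected with each vessel is not given in the sources used here, and an uneven share of it and an effect of CM-695 cannot be told apart.

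**Figure D5:**
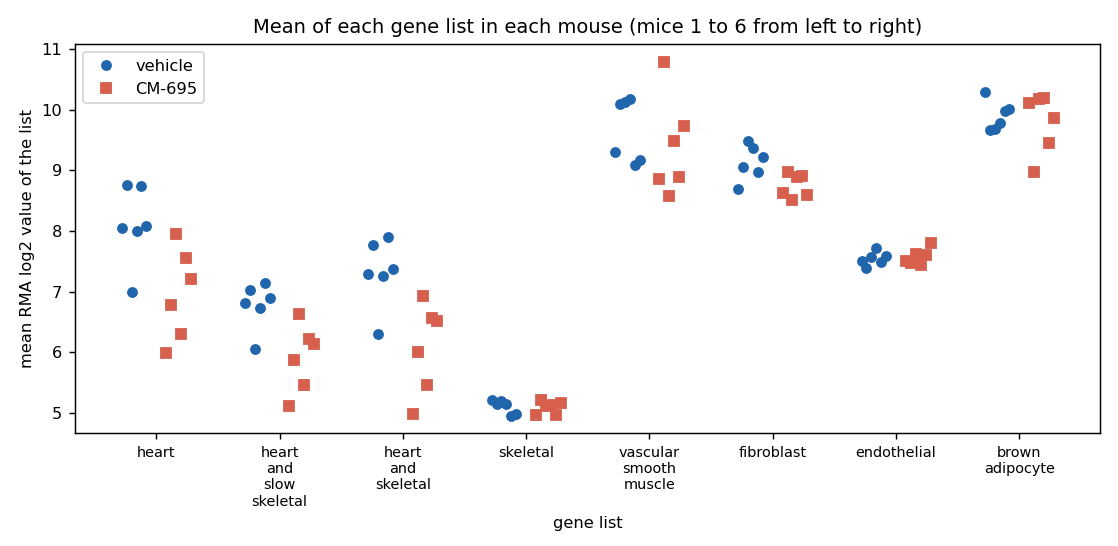
Mean RMA log2 value of each gene list in each mouse, with mice 1 to 6 from left to right. In the heart and shared classes and in the smooth muscle and fibroblast lists, 3 of 6 CM-695 mice lie below the vehicle range, against 2 in the brown adipocyte list and 0 in the skeletal and endothelial lists. Above the vehicle range lies 1 CM-695 mouse in the smooth muscle list and 1 in the endothelial list, and 0 in the other lists shown.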

How the data were processed

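The deposited values are log2 expression that the authors obtained by RMA (background correction, normalization between arrays, summary of probes), per the submitters' processing notes; no source used here names its software. The table held 41345 probe sets on 12 arrays, correlated between 0.957 and 0.977. Precision is limited by having 6 mice per group. In the platform annotation 23521 probe sets had a single symbol, 1814 had several and 16010 had none; the probe set with the highest mean stood for a gene, and 0 probe sets named a member together with another gene.

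Differences were tested with limma 3.58.1 in R 4.3.3 (group only, two-sided, Benjamini-Hochberg over all probe sets, threshold 0.05), which was tested on simulated data. Relations were computed in Python 3.11.15. The members and gene lists were chosen with earlier results of these data known, so no list was tested. Named were all members, the 6 other striated muscle genes with the smallest p, Tcap among them, and the 10 genes most like Actc1. Alternatives were a replicate block, a filter on dim probe sets, repeated quantile normalization, median centring, array weights, eBayes with trend and robust, the mean of a gene's probe sets, and each mouse left out. No source used here gives the dissection order or hybridisation batch.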

Additional observations from a re-analysis of the deposited data

Results flagged for a closer look

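Vehicle mouse 3 stood apart from the other vehicle mice in the heart gene Tnni3 and in Pln, a gene of heart and slow muscle. Its Tnni3 value was 7.30, where the other 5 vehicle mice lay between 8.87 and 9.57, and its Pln value was 7.81, where they lay between 9.39 and 10.26; both gaps exceeded Dixon's 95% critical value for 6 samples. Chance alone would set apart about 1 in 20 groups, and 84 groups of 6 mice were examined (38 genes and 4 class means in each group). The 2 groups set apart here are no more than that rate would give. Without this mouse the difference, CM-695 minus vehicle, was -1.99 for Tnni3 and -2.05 for Pln, against -1.67 and -1.73 with it.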

How the results depend on the processing

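The median difference of the heart genes ran from -1.87 to -1.22 and that of the skeletal genes from 0.0023 to 0.054 with 1 mouse left out. The number of the 38 genes past the threshold was 0 in each of these and 1 with dim probe sets left out (Trdn, adjusted p = 0.0494, over fewer tests). Trdn cleared that filter only through its vehicle mean. The 20 genes with an unadjusted p under 0.05 stayed below 0 in all 19 alternatives, and 19 to 22 genes were lower at that level; 1 was higher without vehicle replicate 1 and without vehicle replicate 4, and 0 otherwise. Ryr1 was -0.0066 with the mean of its probe sets. With 1 mouse left out, genes near 0 changed sign: Acta1 ran from -0.19 to 0.0042, Mybpc1 from -0.089 to 0.060, Myl2 from -0.035 to 0.055, Myoz1 from -0.049 to 0.037, Nppb from -0.11 to 0.0073, Tnni1 from -0.078 to 0.023 and Tnnt3 from -0.0065 to 0.064; the cause was not tested. Tcap passed in all 19 alternatives. Same-numbered mice did not pair (r of their deviations -0.10 to 0.10, 2 of 12 mice closest to their own number). With the replicate block 0 of the 38 genes passed, the smallest adjusted p was 0.225, and the heart median stayed at -1.60. Values near the array median do not separate weak expression from none.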

Other observations

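Casq1, named for skeletal muscle, varied with the smooth muscle gene Myh11 and not with the heart gene Actc1 (r = -0.03). With group means removed, its values correlated over 12 mice with those of Myh11, the smooth muscle myosin heavy chain, at Pearson's r = 0.91 (permutation p = 0.00012, adjusted p = 0.00042) and Spearman's rho = 0.88 (permutation p = 0.0002, adjusted p = 0.000467), and r was 0.90 without CM-695 mice 1 and 3. Ldb3, the shared Z-disc gene least like Actc1, gave r = 0.55 with Myh11 (permutation p = 0.103, adjusted p = 0.144) and rho = 0.31 (permutation p = 0.345, adjusted p = 0.379), and r fell to 0.08 without CM-695 mouse 2 and vehicle mouse 2, so it rested on those mice. Both relations were chosen after the values had been seen, so their p-values are descriptions and not tests.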
